A study of Mus musculus with 16 samples.

Results

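Mouse small intestinal organoids that lacked the autophagy gene Atg16l1 in their epithelium, labelled dIEC, were compared with f/f organoids of the same C57BL/6 background that kept the gene, both without any added cytokine. The comparison rests on 8 of the 16 RNA-seq libraries of the study, 4 dIEC and 4 f/f, which were picked by their labels and not by any measured value. All organoids had grown for 3 days from isolated small intestinal crypts, and the floxed Atg16l1 allele is common to both genotypes, since f/f is the label of the unrecombined allele. The other 8 libraries are dIEC and f/f organoids given 20 ng/ml murine TNF for 2 hours, and they serve here as a second set in which the same genotype difference was measured. The labels give neither the Cre driver behind the deletion, nor the age or sex of the mice, nor whether the 4 libraries of a group came from separate mice or cultures. The p-values therefore measure the spread between these libraries, which may be technical.

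ATG16L1 is a scaffold of the complex that attaches LC3 and related ubiquitin-like proteins to membrane lipids, the step that builds the autophagosome and decorates other membranes. The gene is known in the gut for a coding variant linked to Crohn's disease and for its part in the secretory granules of Paneth cells, the crypt-base cells that release antimicrobial peptides. Crypt organoids hold stem cells, Paneth cells, goblet cells, enteroendocrine cells and absorptive enterocytes, without immune or stromal cells.

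The values are FPKM, fragment counts scaled by transcript length and by the mapped fragments of the library. The summed FPKM of a library ran from 509084 to 610125, and 10796 to 10926 rows reached 1 FPKM. Pearson correlations of log2 values were 0.975 to 0.984 within a genotype (12 pairs) and 0.971 to 0.983 between genotypes (16 pairs). The epithelial markers (Epcam, Cdh1, Krt8, Krt18, Krt19, Cdx2 and Cldn7, none of 7 called) summed to 1759 to 2278 FPKM in f/f and 1641 to 2301 in dIEC. Immune markers other than Lyz2 summed to 5.37 to 6.12 FPKM in f/f and 4.91 to 6.38 in dIEC, with Cd4 and Ncr1 at 0, and mesenchymal and endothelial markers to 3.95 to 13.3 and 4.36 to 4.88. Libraries f/f 1 and dIEC 4 stood apart from the other 6. In both, genes fell below the 8-library mean the more, the higher their GC content (Spearman's rho across genes −0.678 and −0.704), whereas rho lay between 0.119 and 0.636 in the others.

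The targeted gene was lower in the libraries labelled dIEC but was not absent. Atg16l1 had 8.37, 9.37, 9.32 and 8.81 FPKM in f/f libraries 1 to 4, and 5.74, 6.41, 5.21 and 5.20 FPKM in dIEC libraries 1 to 4. Every dIEC value lay below every f/f value. The dIEC mean of 5.64 ± 0.573 FPKM (SD, n = 4) was 62.9% of the f/f mean of 8.97 ± 0.472, a difference of −0.59 ± 0.06 (SE) on the log2(FPKM + 1) scale with an adjusted p of 0.000122. The two-sided exact permutation test gave p = 0.0286, the smallest that 4 against 4 allows. A value for the whole gene does not say whether the remaining reads span the deleted part, so it checks the direction of the labels and not the completeness of the deletion. Within 2 Mb of Atg16l1 on chromosome 1, 32 other genes were tested and only Ugt1a1 was called, at +0.29, and its exons are shared with other Ugt1a genes, which leaves the split of reads between them uncertain.

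In the reported fit, a small share of the transcriptome was called between genotypes, mostly with modest changes. Of 11097 rows tested, 258 passed an adjusted p of 0.05, which is 2.32%. Of these, 171 were higher in dIEC (1.54% of rows) and 87 were lower (0.784%). Their median change was 0.33 for the higher and −0.37 for the lower genes on the log2(FPKM + 1) scale, against −0.02 over all rows, and only 19 rows changed by 1 or more, 9 up and 10 down. The 4 values of each genotype did not overlap in 255 of the 258 called rows and in 7.02% of all rows. The count depends on the libraries: with any 1 of the 8 libraries left out, 139 to 252 rows were called, and the number fell by more than 1.5 times without f/f 2, f/f 3, f/f 4, dIEC 1 or dIEC 2 (139, 140, 142, 141 and 153). Called genes whose own values are given below were called in all 8 such fits unless the text says otherwise. Counts of called members in lists and runs also include genes that were not. Other processing gave larger counts. With each library's GC trend removed, 709 rows were called (534 higher and 175 lower). Without f/f 1 and dIEC 4 of both treatments 709 were (337 and 372), and with library weights 1781 (582 and 1199). A fit of the 8 unstimulated libraries alone gave 136.

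**Figure D1:**
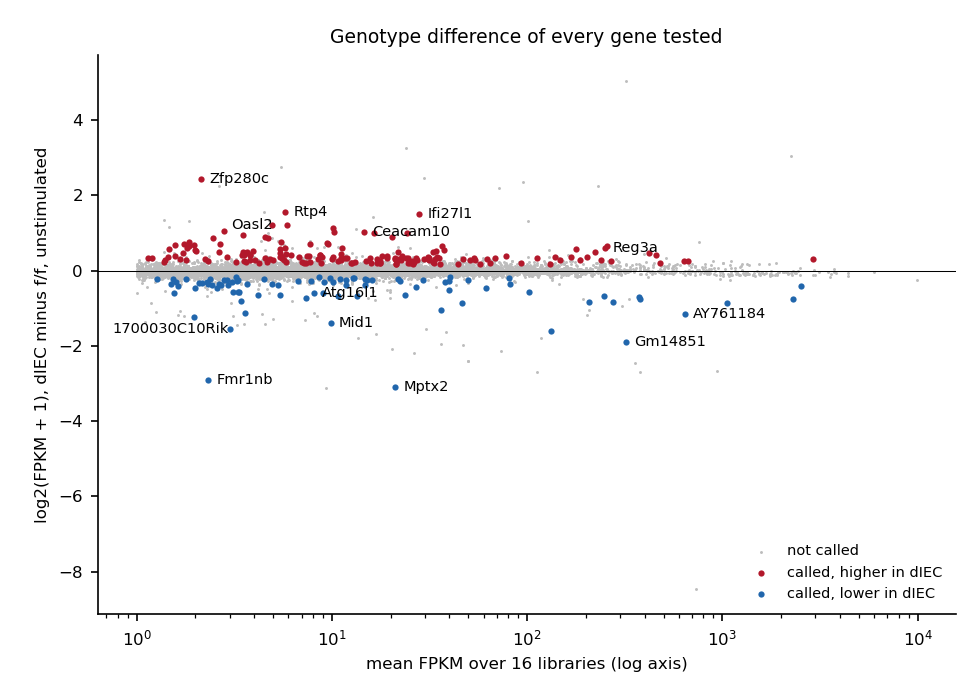
Difference between dIEC and f/f organoids without TNF, on the log2(FPKM + 1) scale (vertical axis), against the mean FPKM over 16 libraries (horizontal log axis), 1 point per row tested. Red points were called higher (171) and blue points lower (87) at an adjusted p under 0.05, and the far uncalled points, such as Mir680-3 at −8.45, are small RNA genes whose replicates differ widely.

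The group with the most called members among the higher genes was the antiviral effectors that interferons induce. Type I and type III interferons signal through JAK kinases to a transcription factor complex that holds IRF9 and binds a DNA element called ISRE in the promoters of these effectors. Of 35 effectors tested, 14 were higher in dIEC and none lower, with a median change of 0.35 against −0.02 over all rows, and 33 of the 35 had a positive change. Leaving out any 1 library left 10 to 15 higher. A further 12 of the 47 effectors in the table were below the minimum of 1 FPKM, and 6 of the 35 tested, 3 of them called (Apol9a, Apol9b and Sp100), averaged under 1 FPKM in f/f over both treatments and reached the minimum only through dIEC. Sp100 was called in 1 of the 8 fits that left out a library. This list, like every list here, was chosen with earlier results of these data known.

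Promoter sequences are shown for some of the higher genes that carry the ISRE core: antiviral effectors, the immunity-related GTPases Igtp and Irgm2, and Ddx60, which is on none of the interferon lists. The core searched was GAAA, any 2 bases and GAAA on either strand within the 250 bases before the RefSeq transcript start (GRCm38.p6). It was present in 7 of 17 called interferon-list genes with a promoter sequence (41.2%), in 10 of 111 other genes called higher (9.01%), in 1 of 53 genes called lower (1.89%) and in 240 of 8186 tested genes (2.93%). It also stood in 9 of 40 interferon-list genes that were tested and not called (22.5%), so the match alone did not separate called from uncalled members. Each line gives the gene strand 5′ to 3′, with every match to the core in the window in capitals, so that overlapping matches form 1 longer run. The core reads TTTC, any 2 bases and TTTC where the core lies on the opposite strand.
Igtp, chr11:58199502-58199551, plus strand: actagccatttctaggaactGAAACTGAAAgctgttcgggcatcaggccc
Irgm2, chr11:58214893-58214942, plus strand: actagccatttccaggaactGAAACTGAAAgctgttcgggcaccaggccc
Oas1a, chr5:120907526-120907559, minus strand: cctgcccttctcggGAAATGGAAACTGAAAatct
Ifit1, chr19:34640784-34640833, plus strand: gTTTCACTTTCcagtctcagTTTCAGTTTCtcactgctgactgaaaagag
Apol9a, chr15:77411104-77411153, minus strand: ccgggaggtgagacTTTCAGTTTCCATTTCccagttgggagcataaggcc
Ddx60, chr8:61928048-61928086, plus strand: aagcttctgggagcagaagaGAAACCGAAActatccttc
Ddx60, an RNA helicase that aids RNA sensing, is named after its values were seen (0.716 FPKM in f/f against 1.80 in dIEC on average, +0.71, adjusted p = 0.00329). The Igtp and Irgm2 windows differ at 2 of 50 bases, the Apol9a and Apol9b windows at 0 of 50, and the Oas1a and Oas1g windows at 0 of the 32 bases they share. These pairs and Ifit1 make up the 7 called interferon-list genes with the core, so the 41.2% does not rest on 7 independent promoters.

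The interferon genes themselves were near or at 0. None of the 16 interferon ligand genes in the table reached the minimum of 1 FPKM, 13 were at 0 in all 8 libraries, and their summed level was at most 0.107 FPKM in any library. Among 16 receptors and signalling genes, 1 was called. Irf9, a DNA-binding subunit of the complex that binds the ISRE, had 5.25, 5.73, 5.69 and 5.27 FPKM in f/f and 7.68, 8.00, 7.28 and 7.48 in dIEC (+0.41, adjusted p = 0.0303), and its call was lost whichever single library was left out (adjusted p up to 0.0955). Ifnar1 and Ifnlr1, receptor chains for type I and type III interferon, had changes of −0.01 and 0.06.

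Of 15 sensors of nucleic acids, their adaptors and linked factors, 3 were higher, and none of these calls held in every fit. Ddx58, which encodes the RNA sensor RIG-I, averaged 3.21 FPKM in f/f against 4.18 in dIEC (+0.30, adjusted p = 0.0247). Its call was lost without f/f 1, f/f 3, f/f 4, dIEC 2 or dIEC 4 (adjusted p up to 0.08). Ifih1, which encodes the sensor MDA5, changed by +0.28 (adjusted p = 0.0282) and was called in 1 of the 8 fits, without dIEC 3 (adjusted p up to 0.0791). Irf7, the transcription factor that amplifies interferon production, had 2.19 to 3.37 FPKM in f/f and 8.10, 7.48, 7.21 and 4.28 in dIEC 1 to 4 (+1.03, adjusted p = 0.045), and was called in 1 of the 8 fits, without dIEC 4 (adjusted p up to 0.154).

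The effectors held the larger changes. Rtp4, an interferon-induced chaperone of membrane receptors, had 0.651, 0.675, 0.798 and 0.515 FPKM in f/f 1 to 4 and 4.16, 4.25, 3.91 and 3.09 in dIEC 1 to 4. All dIEC libraries exceeded all f/f libraries, and the change was +1.54 ± 0.15 (SE, adjusted p = 3.9e-05). Ifi27l1, an interferon-induced protein of the ISG12 family, had 6.46, 9.19, 8.94 and 6.35 FPKM in f/f and 25.01, 26.6, 25.7 and 17.3 in dIEC (+1.49 ± 0.20, adjusted p = 0.00085). Its dIEC 4 value was the lowest of the 4 and still above every f/f value.

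Among the oligoadenylate synthetase family, which makes the messenger that activates RNase L, Oasl2, Oas1a and Oas1g rose, while Oas1b, Oas2 and Oas3 were below the minimum. Oasl1 was tested and was not called. Oasl2 had 0.612, 0.716, 0.805 and 0.657 FPKM in f/f and 3.19, 3.09, 2.91 and 2.52 in dIEC (+1.21 ± 0.17, adjusted p = 0.00131). Oas1a had 2.15, 3.04, 3.08 and 2.80 FPKM in f/f and 7.90, 8.71, 7.38 and 5.18 in dIEC (+1.13 ± 0.19, adjusted p = 0.00406). Oas1g, a near copy of Oas1a between which reads may have been split, changed by +1.20 (adjusted p = 0.00302). The groups did not overlap for any of these 3 genes, and dIEC 4 was the lowest dIEC library for each.

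Other effectors moved less. Samd9l, an antiviral and growth-restricting protein, had 5.62, 4.89, 5.55 and 4.71 FPKM in f/f and 8.64, 8.11, 8.58 and 8.25 in dIEC (+0.60 ± 0.07, adjusted p = 0.000144). Ly6e, a membrane-anchored protein that restricts coronavirus entry, averaged 16.5 FPKM in f/f against 24.2 in dIEC (+0.53, adjusted p = 0.00158). Both genes showed dIEC libraries within a narrow band above all f/f libraries. Ifit1, which binds foreign RNA caps, had 0.911, 0.812, 0.875 and 0.814 FPKM in f/f and 2.77, 2.40, 2.70 and 2.03 in dIEC (+0.90, adjusted p = 0.0209), and its call was kept only without f/f 1 or without dIEC 4 (adjusted p up to 0.0727). Isg15, the ubiquitin-like modifier, had 1.72, 1.34, 1.57 and 1.64 FPKM in f/f and 5.43, 4.91, 5.59 and 2.79 in dIEC, with an adjusted p of 0.0583. It is named as a standard member of the list after its values were seen.

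The library dIEC 4 was the lowest of the 4 dIEC libraries for 21 of the 35 effectors, while dIEC 1, 2 and 3 were lowest for 4, 5 and 5. It is also 1 of the 2 libraries with the opposite GC trend, and the part of that trend in these values was not tested. Without dIEC 4 alone, 15 effectors were called, and without f/f 1 and dIEC 4 of both treatments, 19.

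Of 17 interferon-induced GTPases in the table, which act on the membranes of vacuoles that hold pathogens, 13 were below the minimum, and 3 of the 4 tested were higher, 2 or 3 when a single library was left out. Irgm2 reached the minimum only through dIEC, so its place in that count is no support for it. Irgm2 had 0.706, 0.615, 0.575 and 0.466 FPKM in f/f and 1.48, 1.37, 1.42 and 1.32 in dIEC (+0.59 ± 0.10, adjusted p = 0.00397). Igtp, also called Irgm3, had 0.642, 0.542, 0.605 and 0.543 FPKM in f/f and 1.88, 1.70, 1.47 and 1.29 in dIEC (+0.70 ± 0.13, adjusted p = 0.00847). These neighbouring genes on chromosome 11 showed no overlap between genotypes.

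Of 11 PARP enzymes, which attach ADP-ribose to proteins, 3 were higher in every one of the 8 fits that left out a library. Parp14 averaged 2.45 FPKM in f/f against 4.18 in dIEC (+0.59, adjusted p = 0.003), Parp12 averaged 3.69 and 5.42 (+0.45, adjusted p = 0.00892), and Parp9 averaged 7.90 and 10.3 (+0.35, adjusted p = 0.00397). Of 34 TRIM ubiquitin ligases, 4 were higher and none lower, with a median of 0.04 over the family. Trim30d averaged 2.57 FPKM in f/f against 4.06 in dIEC (+0.50, adjusted p = 0.00347) and Trim34a 0.95 and 1.56 (+0.39, adjusted p = 0.00481). The apolipoprotein L genes Apol7a, Apol9a and Apol9b, neighbours on chromosome 15, were also higher. Apol9a had 0.225, 0.204, 0.304 and 0.121 FPKM in f/f and 1.80, 1.69, 1.89 and 0.81 in dIEC (+1.05, adjusted p = 0.0209). Apol9a and Apol9b are near copies, so their reads may have been divided between them, and both calls were kept only without f/f 3 or without dIEC 4 (adjusted p up to 0.0754).

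Antigen presentation by MHC class II showed 3 of 8 genes higher. Cd74, the invariant chain that guides class II molecules to the endosome, had 1.54, 2.38, 2.43 and 2.13 FPKM in f/f and 5.44, 5.68, 5.68 and 3.90 in dIEC (+0.98 ± 0.17, adjusted p = 0.0054). H2-Ab1, a class II beta chain, had 0.911, 0.99, 1.14 and 1.19 FPKM in f/f and 2.94, 2.18, 2.70 and 1.81 in dIEC (+0.72, adjusted p = 0.017), and its call was lost without f/f 1, f/f 2, dIEC 1 or dIEC 3 (adjusted p up to 0.0694). Ctss, the protease that trims the invariant chain, averaged 22.2 FPKM in f/f against 26.7 in dIEC (+0.25, adjusted p = 0.0052). The immune marker sums given above overlapped between the genotypes, and the part of other cells in the class II values was not tested. MHC class I and peptide loading genes had 2 of 22 members higher, B2m and H2-Q1, with a median of 0.13, but B2m was called in only 1 of the 8 fits, without f/f 1, and neither gene was called without f/f 3 or dIEC 1. No immunoproteasome subunit of 5 was called.

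**Figure D2:**
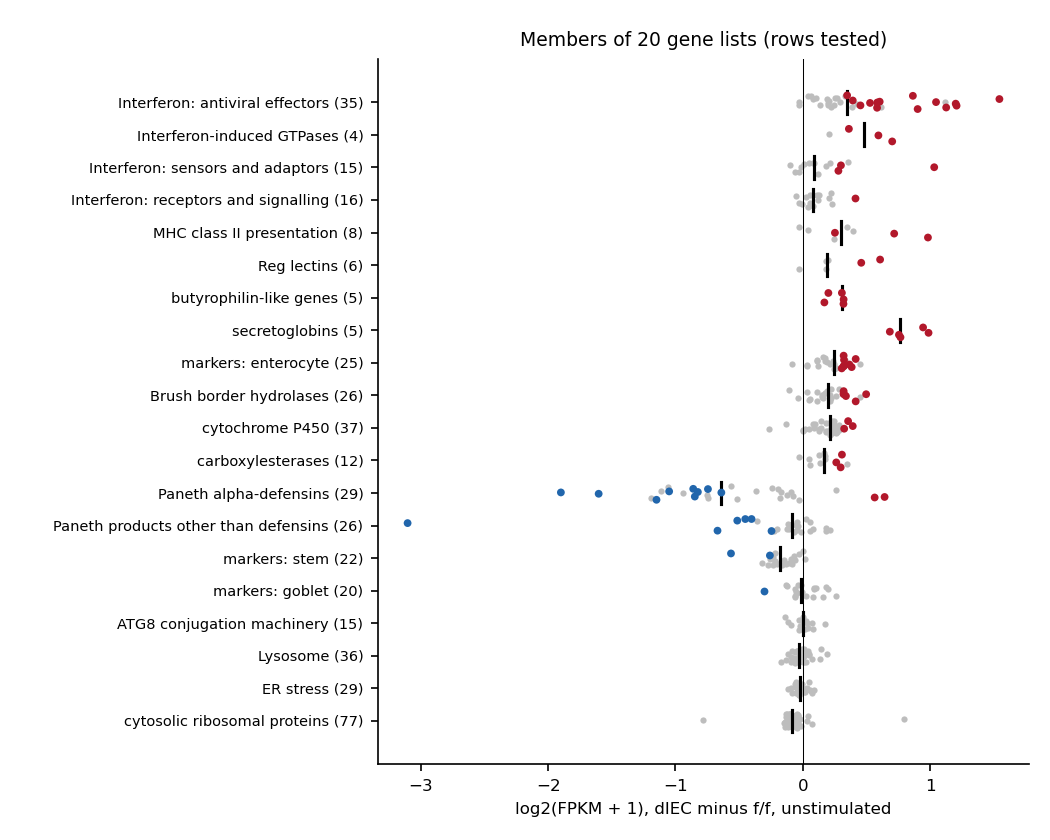
Differences between dIEC and f/f organoids without TNF, on the log2(FPKM + 1) scale, for the members of 20 gene lists, 1 point per row tested, with the number of rows in brackets and a black bar at the list's median. Red points were called higher and blue points lower. The interferon effectors (median 0.35) lie to the right of 0 and the alpha-defensins (median −0.64) to the left, while the ATG8, lysosome and ER stress lists hold no called gene.

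A part of the Paneth cell products was lower in dIEC. The alpha-defensins, called cryptdins in the mouse, are granule peptides that kill bacteria in the crypt. Their summed level was 29184 to 33611 FPKM in f/f and 21032 to 25256 in dIEC. In these bulk organoids, fewer Paneth cells and less RNA per Paneth cell cannot be told apart. Of 29 defensin rows tested, 9 were lower in dIEC and 2 higher, with a median change of −0.64, and 8 to 10 rows were lower when any single library was left out. Only 3 of the 29 rows had a positive change. The genotypes did not overlap in 20 of the 29, against 7.02% of all rows tested. The genes are close copies of each other, so reads may have been shared between them, and values of single members are uncertain for that reason.

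The defensin changes ranged widely among neighbours. Gm14851, a predicted alpha-defensin, had 619, 581, 588 and 551 FPKM in f/f and 191, 137, 177 and 127 in dIEC (−1.90 ± 0.12, adjusted p = 1.49e-07). AY761184, another member of the family, had 1131, 958, 1174 and 1014 FPKM in f/f and 561, 402, 548 and 430 in dIEC (−1.15 ± 0.14, adjusted p = 0.000228). For both genes the dIEC libraries 2 and 4 were the lowest and all dIEC values were below all f/f values. Defa5 averaged 335 FPKM in f/f against 189 in dIEC (−0.85, adjusted p = 0.00182).

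The most abundant members were lower on average in dIEC but were not called. Defa24 averaged 11290 ± 642 FPKM in f/f against 9565 ± 695 in dIEC (−0.24, adjusted p = 0.206), Defa17 averaged 4171 and 3684 (adjusted p = 0.653), and Defa3 averaged 4184 and 3991 (adjusted p = 0.932). These were named as the members of highest level after their values were seen. Defa20 went the other way, with 181, 173, 155 and 154 FPKM in f/f and 304, 204, 263 and 275 in dIEC (+0.64 ± 0.10, adjusted p = 0.003), and so did Gm15308 (+0.56, adjusted p = 0.00566). All 4 dIEC values of both genes lay above the f/f values.

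On chromosome 8 the called rows formed the largest run in the data, 14 of 22 tested rows between chr8:21055040-21530012 (GRCm38.p6), of which 11 were lower and 3 higher. The higher rows, Gm21002, Defa20 and Gm15308, were interspersed with lower ones. Among the lower rows, 1 row of Defa23 was called in 1 of the 8 fits that left out a library, and Gm10104 in 2. The 22 rows are near copies and not independent of each other, and Gm21002 is named after its values were seen.

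**Figure D3:**
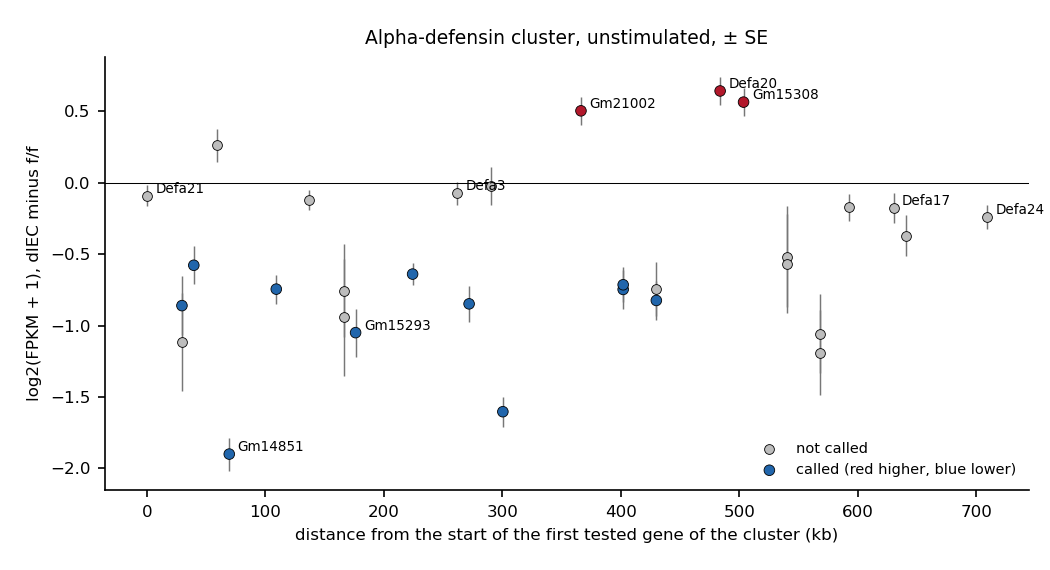
Change of each tested row of the alpha-defensin cluster on chromosome 8 in dIEC against f/f organoids without TNF, on the log2(FPKM + 1) scale with its standard error, against the distance in kb from the start of Defa21. Blue points were called lower, red points higher and grey points were not called. Gm14851 lies lowest, Gm21002, Defa20 and Gm15308 lie above 0, and the abundant Defa3, Defa17 and Defa24 were not called.

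Of 26 other Paneth cell products, 6 were lower and none higher, with a median of −0.09 over the list. Mptx2, a pentraxin that Paneth cells secrete, had 50.3, 35.9, 38.5 and 35.3 FPKM in f/f and 4.69, 3.32, 4.93 and 2.41 in dIEC, a change of −3.10 ± 0.19 (adjusted p = 1.49e-07). Its mean in dIEC was 3.84 ± 1.19 FPKM (SD, n = 4). Ang4, an angiogenin with antimicrobial action, had 280, 224, 218 and 223 FPKM in f/f and 175, 124, 157 and 139 in dIEC (−0.67 ± 0.11, adjusted p = 0.00302). The ranges did not meet for either gene.

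Enzymes of the granule fell by smaller amounts. Mmp7, the protease that activates cryptdins, averaged 59.2 ± 5.10 FPKM in f/f against 43.1 ± 5.30 in dIEC (−0.45, adjusted p = 0.00641). Lyz1, Paneth cell lysozyme, averaged 2573 ± 204 FPKM and 1948 ± 175 (−0.40, adjusted p = 0.013). Its near copy Lyz2 averaged 27.8 and 20.3 FPKM (−0.43, adjusted p = 0.00899), and reads of Lyz1 may have been assigned to it, which is why it was left out of the immune marker sum. Nupr1, a stress-responsive chromatin protein on this list, averaged 41.4 and 28.7 FPKM (−0.51, adjusted p = 0.00142). Itln1, an intelectin of Paneth and goblet cells, averaged 1107 ± 41.7 FPKM in f/f against 1078 ± 81.7 in dIEC and was not called (adjusted p = 0.984). The 6 Paneth cell markers (Lyz1, Defa24, Defa17, Mmp7, Ang4 and Itln1) had a median of −0.32. Of these, 3 were called lower and 0 had a positive change.

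Genes tied to the crypt and its stem cells were mostly uncalled and mostly negative. Of 22 stem cell markers, 2 were lower, with a median of −0.18, and the count ran from 0 to 5 when a single library was left out, being 5 without dIEC 4. The 2 were Slc14a1 and Cdca7, called in 2 and 3 of the 8 fits that left out a library. Lgr5, the receptor that defines the stem cell, averaged 7.33 FPKM in f/f against 6.13 in dIEC (adjusted p = 0.479), Olfm4 averaged 990 and 828 (adjusted p = 0.125), and Ascl2 3.01 and 2.40 (adjusted p = 0.669). Gkn3, a gastrokine that is not on the marker list, had 18.4, 16.9, 18.6 and 17.96 FPKM in f/f and 11.0, 10.2, 12.4 and 9.97 in dIEC (−0.68 ± 0.08, adjusted p = 0.000189). No f/f library came below 16 FPKM and no dIEC library above 13. None of 28 fate transcription factors and Notch genes and none of 24 Wnt feedback genes was called.

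Goblet cell markers had 1 of 20 lower with a median of −0.01, tuft cell markers 0 of 8, and enteroendocrine markers 2 higher and 1 lower of 23. With single libraries left out, 0 or 1 goblet marker was lower (1 only without f/f 1) and 1 to 3 enteroendocrine markers were higher (1 without f/f 2, f/f 3, dIEC 1 or dIEC 2). Nts, the hormone neurotensin of enteroendocrine cells, had 2.08, 1.09, 2.19 and 1.31 FPKM in f/f and 4.06, 3.56, 3.74 and 3.62 in dIEC (+0.85 ± 0.13, adjusted p = 0.00178). Chga, which marks the lineage, averaged 19.7 and 18.9 FPKM and was not called.

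Part of the absorptive genes was higher in dIEC by small amounts. Of 25 enterocyte markers, 8 were higher and none lower, with a median of 0.25, and 24 of 25 had a positive change. Of 26 brush border hydrolases, 6 were higher and none lower, with a median of 0.20. These counts were 4 to 6 and 3 to 5 when a single library was left out, the lowest for the enterocyte markers being without f/f 1, f/f 2, f/f 4 or dIEC 2.

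Asah2, the neutral ceramidase, averaged 16.4 and 21.0 FPKM (+0.34, adjusted p = 0.00677). Krt20, a keratin of differentiated villus cells, had 64.5, 69.5, 67.4 and 67.2 FPKM in f/f and 89.2, 91.5, 90.3 and 80.9 in dIEC (+0.38, adjusted p = 0.00605). Both genes had every dIEC library above every f/f library. Alpi, Fabp1, Vil1 and Apoa1, listed as markers of the enterocyte, were not called, with changes of 0.11, 0.03, 0.11 and 0.33, and for Apoa1 the dIEC 4 value of 456 FPKM lay inside the f/f range.

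Of 215 solute carriers, 12 were higher and 2 lower, with a median of 0.03, and 5 to 14 were higher when 1 library was left out, with fewer than 8 without any library other than dIEC 3. Slc13a1, a sulfate carrier, had 28.4, 25.95, 28.5 and 27.5 FPKM in f/f and 36.7, 36.7, 34.0 and 39.4 in dIEC (+0.40 ± 0.05, adjusted p = 0.00077). Slc15a2, a peptide carrier, had 1.60, 1.21, 1.13 and 1.34 FPKM in f/f and 2.40, 2.65, 2.45 and 3.45 in dIEC (+0.68 ± 0.09, adjusted p = 0.000761). Both were separated without overlap. Slc5a1, the sodium-glucose carrier SGLT1, averaged 95.7 and 124 FPKM (+0.37, adjusted p = 0.00922), Slc2a2, the glucose carrier GLUT2, 24.6 and 31.0 (+0.32, adjusted p = 0.00803), and Slc30a10, a manganese exporter, 4.98 and 6.36 (+0.30, adjusted p = 0.00624).

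Some of the enzymes that modify drugs and bile acids were called higher in dIEC, where 1.54% of all rows were. Of 37 cytochrome P450 genes, 3 were higher and none lower (median 0.21), of 12 carboxylesterases 3 (median 0.17) and of 12 UDP-glucuronosyltransferases 2 (median 0.21). With single libraries left out these counts ran from 1 to 3, 1 to 3 and 1 to 2. Changes were positive for 34 of the 37, 11 of the 12 and 12 of the 12, beside a median of −0.02 over all rows. Cyp2j9 averaged 6.17 and 8.41 FPKM (+0.39, adjusted p = 0.00989), Ces1d 33.6 and 41.5 (+0.30, adjusted p = 0.00481), and Ugt1a1, which conjugates bilirubin, 29.3 and 36.1 (+0.29, adjusted p = 0.003). Each stayed called in every fit that left out a library.

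Lipid enzymes did not move as a group, with 1 higher and 1 lower of 43. Acsm3, a medium-chain acyl-CoA synthetase, fell from 6.87 to 4.05 FPKM on average (−0.64, adjusted p = 0.000345). Sult1c2, a sulfotransferase, had 17.1, 13.9, 15.4 and 13.6 FPKM in f/f and 9.75, 8.70, 8.72 and 8.89 in dIEC (−0.67 ± 0.07, adjusted p = 7.25e-05). Neither gene had overlapping groups.

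Surface proteins that face the lumen or neighbouring lymphocytes formed further sets, gathered after their values were seen. The butyrophilin-like genes act in the mouse gut as epithelial ligands for intraepithelial gamma-delta T cells. All 5 tested, of 7 in the table, were higher, with a median of 0.31. The 5 are neighbours on chromosome 17, in a run with H2-Ab1 and H2-Q1 (chr17:34263227-35328142). There, 7 of 40 tested rows were called, all higher, so the 5 are not separate loci. Btnl6 had 18.5, 21.6, 20.4 and 20.2 FPKM in f/f and 25.3, 25.7, 25.5 and 25.2 in dIEC (+0.32 ± 0.05, adjusted p = 0.00209). Btnl1 averaged 45.0 ± 2.42 and 55.9 ± 2.58 FPKM (+0.31, adjusted p = 0.00481). Groups were apart for both, and these 2 were called in every fit. Btnl2, Btnl4 and Btnl5 changed by +0.32, +0.20 and +0.17 with adjusted p of 0.0463, 0.0416 and 0.0397. Btnl2 was called in 1 of the 8 fits, without dIEC 4, and Btnl4 and Btnl5 in 1, without dIEC 3. The number of called members was thus 2 without f/f 1, f/f 2, f/f 3, f/f 4, dIEC 1 or dIEC 2.

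Secretoglobins, small secreted proteins of mucosal surfaces, were called higher in 5 of 5 rows tested, of 21 in the table, with a median of 0.77. Scgb2b27 reached the minimum only through dIEC. Of the 16 below the minimum, Scgb1b7, Scgb1b20 and Scgb1b29 went the other way without overlap, from 0.168 to 0.427, 0.079 to 0.277 and 0.226 to 0.304 FPKM in f/f to at most 0.0753, 0.0682 and 0.0804 in dIEC. They were named after their values were seen. Scgb2b19 had 15.3, 13.0, 9.98 and 11.0 FPKM in f/f and 29.1, 21.3, 24.4 and 26.5 in dIEC (+0.99 ± 0.14, adjusted p = 0.00142). Scgb2b20 had 2.65, 2.90, 2.27 and 2.34 FPKM in f/f and 5.91, 5.64, 7.11 and 4.75 in dIEC (+0.94 ± 0.16, adjusted p = 0.0046). Neither overlapped. The members lie together on chromosome 7 and resemble each other in sequence, so their reads may be shared, and without f/f 4 the called members were 3.

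Ceacam10, a secreted member of the carcinoembryonic antigen family, had 7.09, 5.64, 5.03 and 6.24 FPKM in f/f and 14.7, 11.1, 12.3 and 15.0 in dIEC (+1.03 ± 0.10, adjusted p = 4.77e-05). Cd177, a surface glycoprotein known from neutrophils, had 3.38, 3.48, 3.24 and 3.77 FPKM in f/f and 6.84, 6.23, 5.44 and 6.80 in dIEC (+0.71 ± 0.12, adjusted p = 0.0054). The genotypes did not overlap for either. Lectins of the Reg3 family, which bind bacterial walls, were also higher. Reg3a had 256, 251, 261 and 257 FPKM in f/f and 430, 351, 398 and 390 in dIEC (+0.61 ± 0.07, adjusted p = 0.000144), while Reg3g had 56.6 and 64.2 on average and was not called (adjusted p = 0.458). Reg3b averaged 621 and 857 FPKM (+0.46, adjusted p = 0.0209), with the call kept only without f/f 1, dIEC 2 or dIEC 4 (adjusted p up to 0.0735).

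Of 20 mucosal defence genes, 6 were higher and 1, Ang4, lower. The higher count was 2 without f/f 2 and 3 without f/f 4 or dIEC 1. Pigr, which carries immunoglobulin A into the lumen, averaged 643 ± 27.4 FPKM in f/f against 767 ± 37.1 in dIEC (+0.26, adjusted p = 0.0104). Nox1, a superoxide-producing oxidase, had 8.06, 4.77, 4.04 and 6.04 FPKM in f/f and 11.7, 9.67, 8.71 and 15.9 in dIEC (+0.89 ± 0.19, adjusted p = 0.0255), and was called only without f/f 1, dIEC 2 or dIEC 3 (adjusted p up to 0.0857). Ccl20, a chemokine that TNF induces, was the only higher gene of 25 NF-kB response genes, with 8.63 ± 0.969 and 11.4 ± 0.206 FPKM (+0.37, adjusted p = 0.0142).

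**Figure D4:**
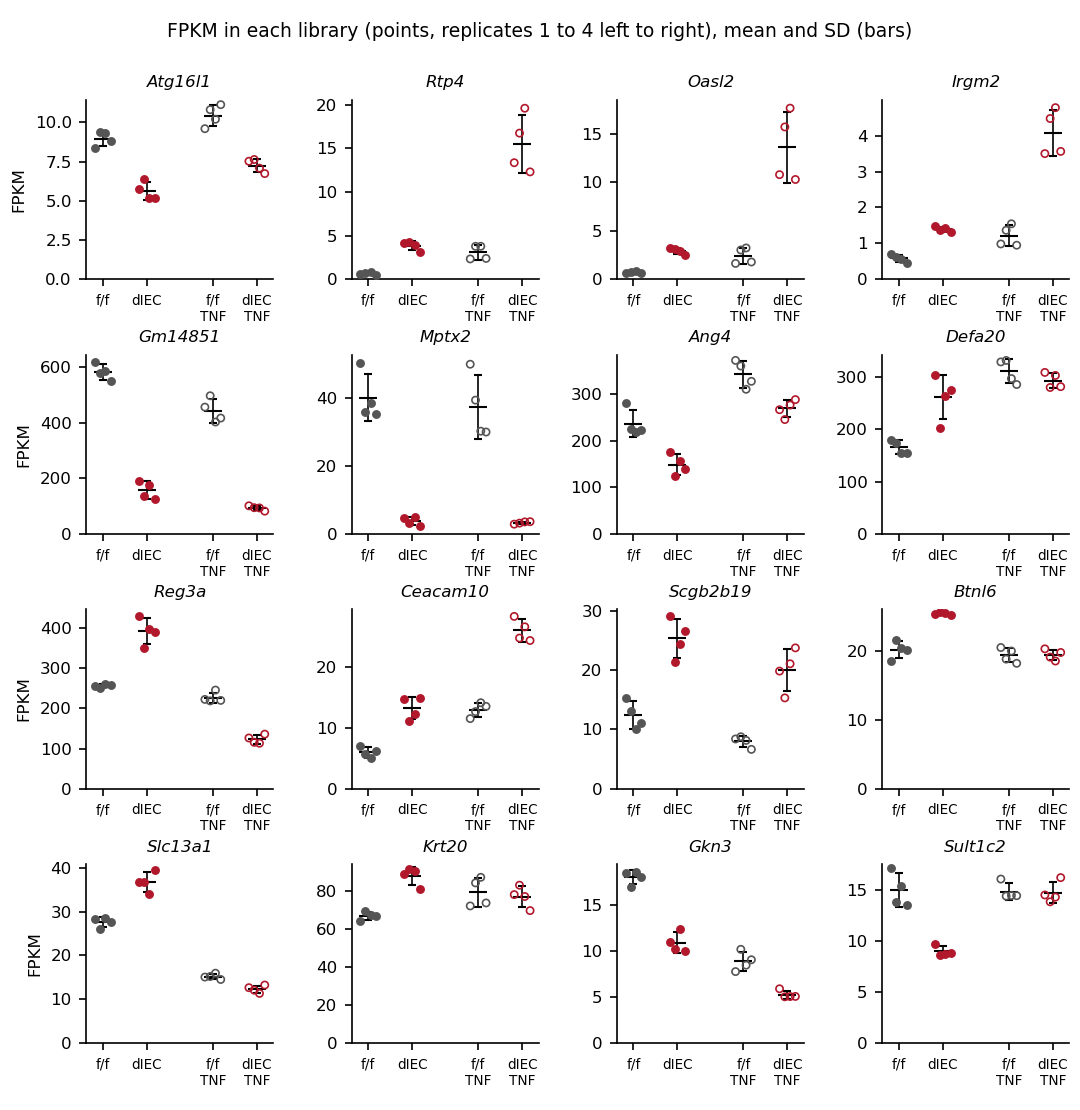
FPKM of 16 genes in each library (points, replicates 1 to 4 from left to right) with mean and SD (bars, n = 4), for f/f (grey) and dIEC (red), without TNF (filled) and with TNF (open), vertical axes from 0. Without TNF the filled red points are higher than the filled grey ones for Rtp4, Oasl2, Irgm2, Defa20, Reg3a, Ceacam10, Scgb2b19, Btnl6, Slc13a1 and Krt20, and lower for Atg16l1, Gm14851, Mptx2, Ang4, Gkn3 and Sult1c2.

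Genes of the hypoxia response had 3 of 21 higher and glycolysis genes 3 of 26, or 2 to 4 and 1 to 3 when a single library was left out (1 without any library but dIEC 3 or dIEC 4). Bnip3, a mitochondrial receptor for autophagy that hypoxia induces, had 10.5, 10.0, 11.6 and 10.3 FPKM in f/f and 20.1, 14.6, 16.6 and 13.5 in dIEC (+0.56 ± 0.09, adjusted p = 0.00397). Egln3, the oxygen-sensing prolyl hydroxylase PHD3, averaged 6.25 ± 0.612 and 9.36 ± 1.89 FPKM (+0.50, adjusted p = 0.0114). In both genes dIEC 1 was the highest library. Hmox1, which degrades heme and is a target of NRF2, had 5.08, 3.58, 3.84 and 4.32 FPKM in f/f and 2.67, 2.55, 2.42 and 2.11 in dIEC (−0.59 ± 0.10, adjusted p = 0.00421), the only called gene of 34 NRF2 and antioxidant targets.

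The autophagy machinery other than Atg16l1 showed no called change. None of the other ATG8 conjugation genes was called in a list of 15 (median 0.00), none of 24 initiation genes, none of 36 lysosome genes (median −0.03) and, among 19 autophagy receptors, only Bnip3. Map1lc3b, which encodes LC3B, averaged 41.5 ± 1.59 FPKM in f/f against 41.6 ± 3.22 in dIEC, and Sqstm1, which encodes the cargo receptor p62, averaged 53.3 ± 2.48 and 52.0 ± 4.33. Lists of 29 ER stress, 23 necroptosis, 29 apoptosis, 24 immediate early, 13 EGFR and 22 glutathione S-transferase genes held no called gene at this threshold either. The same held for 77 cytosolic ribosomal protein rows (median −0.09), 79 respiratory chain and 76 mitochondrial ribosomal protein genes.

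Some of the largest changes fell on genes outside any of these groups. The X-linked zinc finger gene Zfp280c was listed at 0.00593, 0, 0 and 0 FPKM in f/f 1 to 4 and at 3.93, 4.47, 4.29 and 5.12 in dIEC 1 to 4 (+2.44 ± 0.07, adjusted p = 1.14e-11). Zfp280c averaged under 1 FPKM in f/f over both treatments and reached the minimum only through dIEC. Fmr1nb, a testis-type gene also on chromosome X, had 8.56, 8.47, 5.91 and 8.28 FPKM in f/f and 0.0371, 0.688, 0 and 0.0791 in dIEC (−2.90 ± 0.17, adjusted p = 1.49e-07). Fmr1nb reached the minimum only through f/f. Mid1, an X-linked ubiquitin ligase of microtubules, had 10.1, 11.8, 11.4 and 11.4 FPKM in f/f and 3.61, 3.88, 3.53 and 3.60 in dIEC (−1.38 ± 0.08, adjusted p = 1.49e-07). The genotypes did not overlap in any of these genes, though f/f 3 and dIEC 2 lay apart from their own groups for Fmr1nb. Of 4 tested rows on chromosome Y, 1 was called, against 2.32% of all rows. It was Eif2s3y, lower in dIEC, called in 2 of the 8 fits that left out a library and named after its values were seen. The sex make-up of the groups was not tested. Whether the f/f and dIEC organoids came from littermates is not stated in the labels, and a difference in genetic background and the deletion cannot be told apart here. Tfpi, an inhibitor of the coagulation pathway, fell from 5.58 ± 0.315 to 2.75 ± 0.305 FPKM (−0.81, adjusted p = 3.9e-05), and Cdkn2b, a cell cycle inhibitor, rose from 17.6 to 23.3 FPKM (+0.39, adjusted p = 0.00425).

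Lower genes with clone-type names (predicted genes and RIKEN clones) lay together in places, and these were named after their positions and values were seen. A set of 4 RIKEN transcripts near the start of chromosome 12 were lower. Transcript 1700030C10Rik had 5.29, 5.61, 5.34 and 5.41 FPKM in f/f and 1.25, 1.06, 1.14 and 1.30 in dIEC (−1.55 ± 0.08, adjusted p = 2.71e-08), and 2410018L13Rik, 5730507C01Rik and 9030624G23Rik changed by −1.14, −0.87 and −0.74. The 4 lie within chr12:18514440-24097256, where the rows tested were not counted. On all of chromosome 12, 4 rows were higher and 5 lower of 380 tested, or 2.37% called against 2.32% of all rows. On chromosome 4, within chr4:145789515-147180579, 4 of 6 tested rows were lower, in a zinc finger gene cluster, and Gm13051 among them had 4.30, 3.56, 3.81 and 3.47 FPKM in f/f and 0.931, 0.907, 1.06 and 1.20 in dIEC (−1.24 ± 0.08, adjusted p = 4.17e-07). Another of the 4, a row of Gm13139, was called in 2 of the 8 fits that left out a library. The zinc finger gene Zfp951 on chromosome 5 averaged 5.71 and 3.30 FPKM (−0.64, adjusted p = 0.0004). Of 87 lower rows, 26 had clone-type names, against 8 of 171 higher rows.

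The genotype difference was next read in the 8 libraries with TNF, which share no library with the unstimulated ones. They are not fully separate, since libraries of the same genotype and number deviated together across treatments (correlation over 0.1 in 7 of 8 cases). There, 721 of 11097 rows were called (6.5%), 421 higher (3.79%) and 300 lower (2.7%). Of the 171 genes higher without TNF, 51 were called higher with TNF as well and 33 were called lower, and 92 kept the sign. Of the 87 lower genes, 43 were called lower again, 3 were called higher, and 78 kept the sign. The difference of the genotype effects passed an adjusted p of 0.05 for 85 of the 171 and 7 of the 87, against 3.29% of all rows. The genes were picked on their unstimulated values, which also enter that difference, and both contrasts share 1 estimate of the spread. The 92 genes with a difference of effects became 47 to 60 when f/f 1, f/f 2, f/f 3, f/f 4, dIEC 1 or dIEC 2 was left out, and 130 with a block for each genotype and replicate number.

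**Figure D5:**
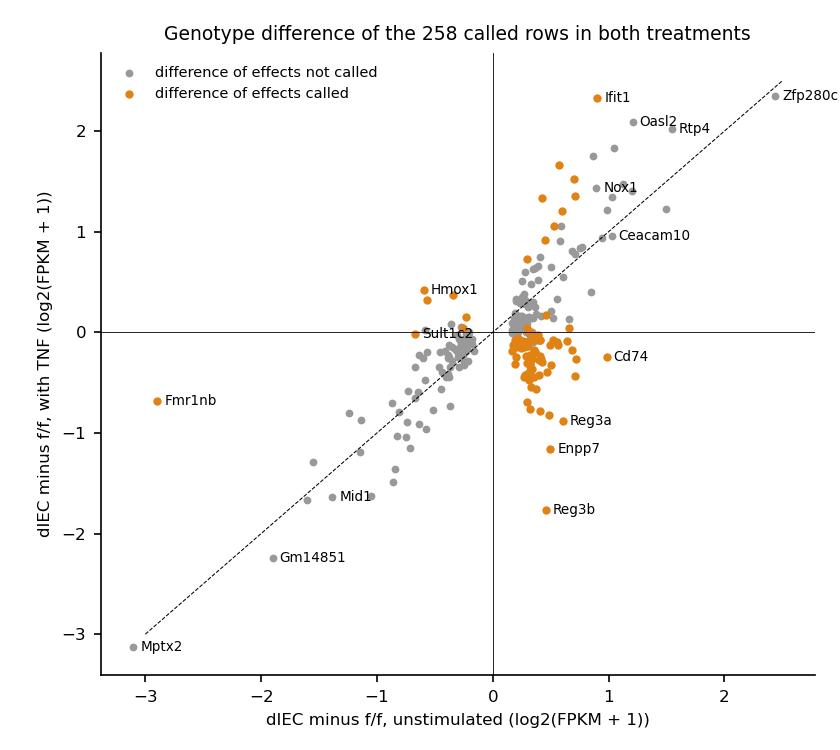
Genotype difference of the 258 called rows without TNF (horizontal) and with TNF (vertical), both on the log2(FPKM + 1) scale, with equal effects on the dashed line. Orange points passed the test of the difference between the 2 effects. Mptx2, Gm14851 and Zfp280c lie near the line, interferon genes such as Oasl2 and Ifit1 lie above it, and a group of genes that includes Reg3a, Reg3b and Enpp7 lies below 0 on the vertical axis.

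The interferon effectors kept their direction. With TNF, 29 of 35 were higher and none lower, with a median of 0.92. Rtp4 averaged 3.07 FPKM in f/f and 15.5 in dIEC, both under TNF (+2.02, adjusted p = 9.55e-07). Ifit1 averaged 1.73 and 13.1 FPKM there, and its genotype effect was larger than without TNF (adjusted p of the difference = 0.00699). Oasl2 averaged 2.42 and 13.6 FPKM, with an adjusted p of the difference of 0.0632, or 0.0191 with that block. For Igtp and Irgm2 the effect was also larger with TNF (adjusted p = 0.0221 and 0.0247).

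The Paneth products were mixed. With TNF, 18 of 29 defensin rows were lower and none higher, and of the 26 other products 6 were lower and 3 higher. Mmp7, at 77.1 and 67.1 FPKM, was not called there (adjusted p = 0.189). Mptx2 averaged 37.3 and 3.31 FPKM (−3.12), close to its unstimulated change. Defa20 and Gm15308, higher in dIEC without TNF, were 311 and 294 FPKM and 216 and 198 FPKM with it, and neither was called there. Defa21 and Defa22, which did not differ without TNF, were 143 and 43.6 FPKM and 145 and 44.8 FPKM with it (adjusted p of the difference = 4.66e-07 for both), named after their values were seen. Ang4, at 342 and 269 FPKM, had an adjusted p of 0.0681.

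Absorptive genes did not keep their direction. With TNF, 2 of 25 enterocyte markers were higher and 6 lower, and 3 of 26 brush border hydrolases were higher and 12 lower. The difference of the effects was called for 10 and 14 of these genes, or 18 and 20 with that block. Asah2 averaged 22.1 FPKM in f/f against 17.0 in dIEC (−0.36, adjusted p = 0.00134), with an adjusted p of the difference of 0.000288. Slc13a1 averaged 15.2 and 12.4 FPKM (−0.28, adjusted p = 0.00413). Reg3a changed direction, at 226 FPKM in f/f against 123 in dIEC (−0.88, adjusted p = 1.23e-06), with an adjusted p of the difference of 4.66e-07. No butyrophilin-like gene was called with TNF, and the difference of effects was called for 2 of the 5. The secretoglobins stayed higher in 5 of 5 rows, and Ceacam10 and Cd177 stayed higher at 25.99 against 13.0 FPKM and 13.5 against 7.53 FPKM.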

How the data were processed

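RNA-seq of 16 organoid libraries was read from the authors' deposited table of FPKM values (23847 rows). Per the submitters' processing notes, TopHat2 2.1.1, Cufflinks 2.2.1 and Cuffdiff were used with mm10; their settings, strandedness and annotation are not given in the sources used here. No counts are given, so the depth per library is unknown and no counting interval can be had. The deposited p-values were not used.

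Libraries were grouped by their titles. The 11097 rows averaging 1 FPKM or more over all 16 libraries were taken as log2(FPKM + 1), which understates the change of low genes, and fitted in limma 3.58.1 (R 4.3.3) with 1 mean per group and a mean-variance trend (12 residual and 2.52 prior degrees of freedom). Contrasts were two-sided, with Benjamini-Hochberg adjusted p over all rows. Tested on simulated data for the unstimulated contrast, the fit recovered 88 of 100 genes given a change of 0.5 on the log2 scale and 94 of 100 given 1, with 7 false calls. The simulated noise was independent between genes and libraries. Deviations that genes of a library share, such as the GC trends of f/f 1 and dIEC 4, are therefore not part of these figures. Levels are FPKM, and all changes are dIEC minus f/f on the log2(FPKM + 1) scale. The text names Atg16l1, the 15 largest rises and 15 largest falls with groups apart and no clone-type symbol, up to 4 called genes per list of smallest adjusted p (or 1 where none was called) and cell type markers. Other members, such as uncalled genes central to a list, were named after their values were seen. The 66 lists, 6 of them added after values were seen, and the libraries compared were chosen with earlier results of these data known. Positions and promoters are from RefSeq (GRCm38.p6); of 15 promoters checked, 14 matched the transcript's strand. Alternatives changed the pseudocount, the minimum, the scaling, the libraries, the weights and a GC correction.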

Additional observations from a re-analysis of the deposited data

Results flagged for a closer look

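In the 30 genes with the largest changes, each group of 4 libraries was tested for a library far from the other 3, and 7 of 60 groups had one, where chance gives about 1 in 20. The values were Ang4 at 279.9 FPKM in f/f 1, Apol9b at 0.4203 in f/f 3, Cd74 at 3.901 in dIEC 4, Ifi27l1 at 17.27 in dIEC 4, Fmr1nb at 5.91 in f/f 3 and at 0.6884 in dIEC 2, and Zfp280c at 0.00593 in f/f 1. None of these values reached the range of the other genotype, which was fixed in advance. The 30 genes were picked from rows whose groups did not overlap.

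The genotype effect with TNF differed from that without it for 5 of the 30 genes, by the contrast of the 2 effects in limma. The difference, with TNF minus without, was −1.22 for Cd74, 2.22 for Fmr1nb, 1.01 for Hmox1, 1.43 for Ifit1 and 0.66 for Sult1c2 on the log2(FPKM + 1) scale, with adjusted p of 0.00973, 0.000116, 0.000761, 0.00699 and 0.00143. Cd74 was 48.9 FPKM in f/f and 41.4 in dIEC with TNF. Fmr1nb fell to 1.05 FPKM in f/f with TNF and was 0.271 in dIEC with TNF. Hmox1 was lower in dIEC without TNF and higher with it, at 12.5 and 17.1 FPKM. Sult1c2 was 14.9 FPKM in f/f and 14.7 in dIEC with TNF. These genes were picked on their unstimulated values, which enter the difference.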

How the results depend on the processing

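No named gene changed direction under the 19 alternatives, and 57 of 115 called named genes were called in all of them; Atg16l1 was among these. The number of called rows (258, 171 higher and 87 lower) was less stable. A minimum mean of 5 FPKM gave 166 called, with 48 lower, 56 also called in the same direction with TNF (94 in the reported fit) and 58 with a different effect (92). The fit of the 8 unstimulated libraries alone gave 136 (88 higher and 48 lower). Library weights gave 1781 (582 and 1199; 418 and 817), removal of each library's GC trend 709 (534 and 175; 232 and 327), and leaving out f/f 1 and dIEC 4 of both treatments 709 (337 and 372; 202 and 267). Weights and that omission turned the split towards lower calls, and the cause was not tested. Median-of-ratios scaling gave 213 higher and 78 lower. Leaving out single libraries gave 139 to 252 called, 87 to 150 higher and 48 to 102 lower, 61 to 99 also called with TNF and 47 to 91 with a different effect, and −0.64 to −0.56 for Atg16l1. Libraries of the same number did not pair across genotypes: their deviations correlated at −0.0838 to 0.128, over 0.1 in 1 of 4 pairs, and 0 of 4 correlated best with its own number. With a replicate block, 306 rows were called (203 higher and 103 lower), 243 of them shared with the reported fit. Across treatments within a genotype, same-numbered libraries correlated over 0.1 in 7 of 8 cases (not f/f 4, −0.0296). A replicate block within each genotype, chosen after seeing the data, called the difference of effects in 1231 rows, 364 of the 365 without it among them, and in 130 of the 258, with all 92 reported kept. Without counts, what depth limits cannot be said.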
